A study of Cristatella mucedo with 12 samples.

Results

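MT_cox1, MT_cox2, MT_cox3 and MT_cob are the mitochondrial genes for 3 subunits of cytochrome c oxidase and for cytochrome b in the freshwater bryozoan Cristatella mucedo. They were chosen by name from the gene column of the deposited count table and make up 4 of its 35949 gene models. Bulk polyadenylated RNA was counted in 12 libraries from wildtype animals of isolate SBPEP1, a strain of this colonial filter feeder. Mature colonies were collected from a stream and cut in either of 2 ways. One dissection gave a central zone (replicates 1 and 2) and an edge zone (replicates 2 and 3), and elongated colonies gave end parts (replicates 1 and 3) and middle parts (replicates 2 and 3). Statoblasts, the hard-shelled resting buds of freshwater bryozoans, survive cold and later give rise to new colonies. One library was made of statoblasts from the freezer, and 1 each of thawed statoblasts kept in an aquarium for 2, 4 and 6 days, so no stage has a replicate. The labels do not say how many colonies or statoblasts went into a library or whether any were pooled.

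In animals, cytochrome b is the mitochondrially encoded core of complex III, which passes electrons from ubiquinol to cytochrome c. Cytochrome c oxidase, or complex IV, takes electrons from cytochrome c to oxygen. Its catalytic core is made of COX1, which holds the oxygen-reducing centre, COX2, which receives the electrons, and COX3, while the other subunits of both complexes are nuclear products. Complex I (the nad genes) and ATP synthase (the atp genes) also have mitochondrially encoded subunits, so 1 small genome carries parts of 4 enzyme complexes of oxidative phosphorylation.

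The 4 genes lay on contig 594, a sequence of 21003 bases that also held 8 models of nad genes, 2 of atp genes and 2 ribosomal RNAs. The models MT_nad3_0 and MT_nad3_1, of 354 and 198 bases, share the name of the nad3 gene. They were counted separately, so all counts of mitochondrial protein genes below are counts of models. MT_cob took bases 7822 to 9006, with MT_nad6 starting 2 bases after it. MT_cox1 took bases 15433 to 16968 between MT_atp8 and MT_atp6, and MT_cox3 bases 17925 to 18701 between MT_atp6 and MT_nad2. MT_cox2 took bases 19788 to 20468, also separated from MT_nad2 by 2 bases. Lengths were 1536 bases for MT_cox1, 1185 for MT_cob, 777 for MT_cox3 and 681 for MT_cox2, each a multiple of 3. Assembly name, gene strand, exons and untranslated regions were not given in the sources used here. Since the table names no nuclear model, no marker of a tissue or cell type could be looked up, and the labelled tissues could not be checked in that way.

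Mature libraries held 14787598 to 26089274 counts each, and the shallower statoblast libraries 4738221 to 7805888. The genes were abundant in every library, and levels are given as CPM, the count per 1000000 counts of the library. The 95% Wilson interval of a CPM value reached at most 0.471% to either side in mature and 1.19% in statoblast libraries, which covers counting error only. The 4 genes together held 8.33% and 7.73% of all counts in the 2 central zone libraries, 6.78% and 4.76% in the edge zone, 7.81% and 4.69% in the end part and 8.05% and 4.96% in the middle part. In the statoblast series they held 2.51% in the freezer library and 3.41%, 3.49% and 3.20% at days 2, 4 and 6. Every mature library thus lay above every statoblast library, and in the edge zone, end part and middle part the lower value was the library with replicate number 3. MT_cox1 had the highest count of all 35949 models in 11 of 12 libraries and ranked 4 in the freezer library. MT_cob ranked between 2 and 4 outside the freezer library and 7 in it.

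The 12 libraries showed the catalytic subunit gene MT_cox1 at 18223, 26213 and 37157 CPM as lowest, median and highest of the 8 mature libraries. Its 4 statoblast values were 8669.8 CPM in the freezer library and 12894, 13251 and 12485 CPM at days 2, 4 and 6. The highest mature value came from central zone replicate 1 and the lowest from edge zone replicate 3, and no statoblast library reached the lowest mature one. MT_cox2, the electron entry subunit, had 8887, 11313 and 13330.2 CPM as lowest, median and highest mature value. It had 5461, 6738, 6848 and 6035 CPM over the statoblast stages in the order freezer, day 2, day 4 and day 6. Its mature values had the smallest SD of the 4 genes, and again the sets did not overlap.

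MT_cox3, the remaining core subunit, had 8278, 16766 and 20653 CPM as lowest, median and highest mature value. Over the same stages it had 4806, 6219, 6535 and 5833 CPM. Its mature values fell into 2 separate ranges, 8278 to 9198 CPM in the 3 libraries with replicate number 3 and 16300.4 to 20653 CPM in the other 5. MT_cob had 10121, 15696 and 18673 CPM as lowest, median and highest mature value, and 6131, 8273, 8297 and 7692 CPM over the stages. It was split in the same way, with the number 3 libraries at 10121 to 11184 CPM and the other 5 at 15546 to 18673 CPM.

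**Figure D1:**
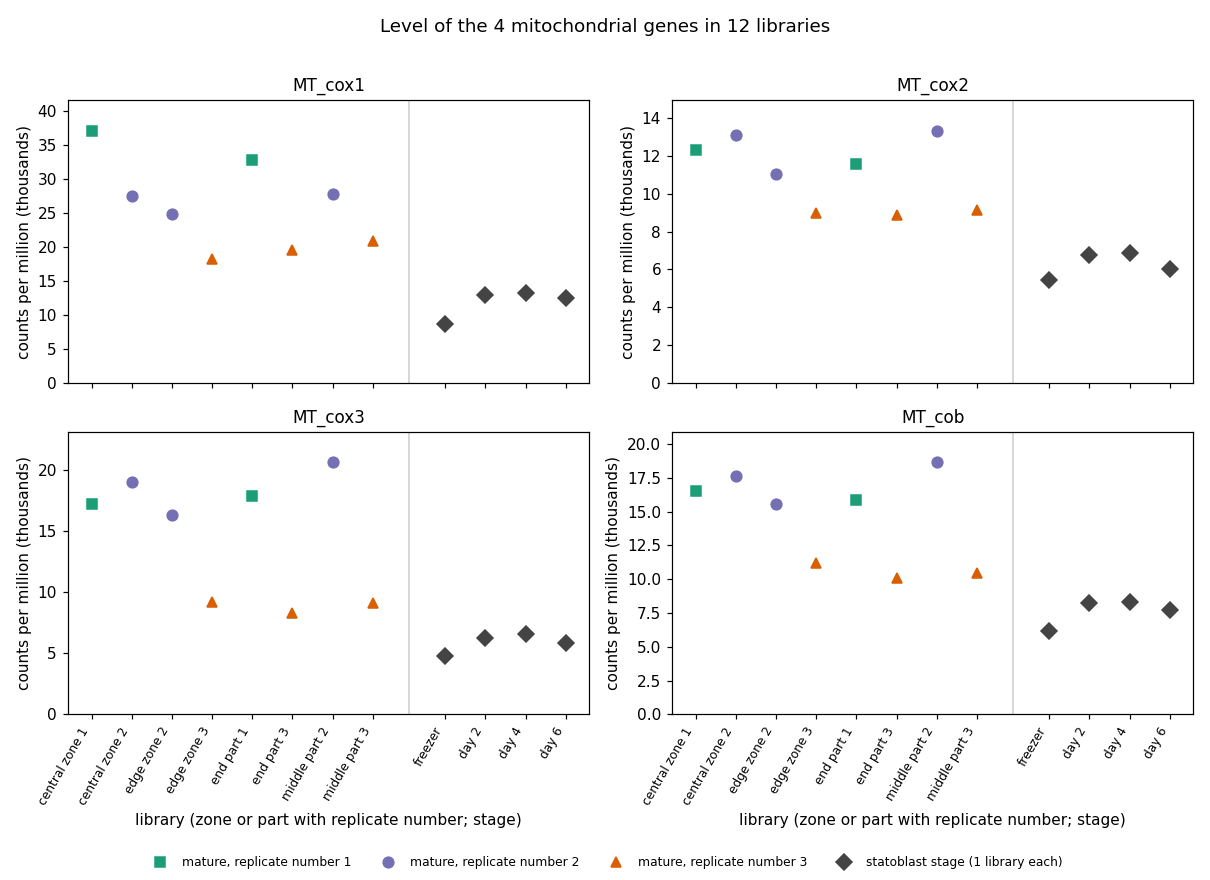
Level of each of the 4 genes (vertical axis, counts per 1000000 divided by 1000, starting at 0) in each of the 12 libraries (horizontal axis, 1 point per library, with colour and shape giving the replicate number in the title). Mature libraries with number 3 lie below the other mature libraries in each panel, at 8278 to 9198 CPM against 16300.4 to 20653 CPM for MT_cox3, and the 4 statoblast libraries lie lowest.

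The 4 genes fell in the statoblast series against mature colonies, as did the 10 other mitochondrial protein genes, counted as models. The log2 fold change was -1.89 for MT_cox3 (SE 0.35, edgeR quasi-likelihood test, adjusted p = 0.000182), -1.68 for MT_cox1 (SE 0.28, adjusted p = 7.23e-05), -1.49 for MT_cob (SE 0.29, adjusted p = 0.000281) and -1.38 for MT_cox2 (SE 0.25, adjusted p = 0.000167). Mean levels were 11825 ± 2127 against 26115 ± 6601 CPM for MT_cox1 and 6271 ± 649 against 11047 ± 1837 CPM for MT_cox2 (SD, n = 4 statoblast and n = 8 mature libraries). They were 5848 ± 751 against 14718 ± 5012 CPM for MT_cox3 and 7599 ± 1017 against 14509 ± 3396 CPM for MT_cob. Lower calls made up 48.2% of the 17896 models tested, so a fall as such was common in this comparison. The median log2 fold change was -1.59 for the 4 genes, -1.63 for the 10 other mitochondrial protein genes and -0.62 for all models tested. The other 10 all passed the test, from -2.25 for MT_atp6 to -1.19 for MT_nad3_0. In CPM every statoblast library lay below every mature library for all 4 genes, which held for 31.6% of the 15572 models with a mean of at least 1 CPM.

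The size of the fall depended on the scaling of the libraries. With library totals alone the 4 genes changed by -1.33 to -0.81 and the median model by -0.09, and with the DESeq2 Wald test they changed by -2.04 to -1.52 and the median model by -0.41. All 4 passed under both, where lower calls made up 40.3% and 45.4% of the models tested. Against only the 5 mature libraries with replicate number 1 or 2 the changes were -2.25 for MT_cox3, -1.93 for MT_cox1, -1.76 for MT_cob and -1.58 for MT_cox2. Against only the 3 with number 3 they were -1.28, -1.40, -1.16 and -1.20 in the same order. All 4 genes were called in both fits, where lower calls made up 45.3% and 42.9% of models, but these libraries were split after the values of the 4 genes had been seen. The statoblast libraries were shallower than the mature ones in every case, so depth and life stage cannot be told apart. In bulk RNA, fewer cells of a type and less RNA per cell cannot be told apart either. The deposited values of MT_cox1 and MT_cox2 were multiples of 0.5 in 4 of 4 statoblast libraries and in 0 of 8 mature ones. Those of MT_cox3 were so in 2 of 4 and 1 of 8, and those of MT_cob in 1 of 4 and 0 of 8. The part of these fractions in the fall was not tested.

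**Figure D2:**
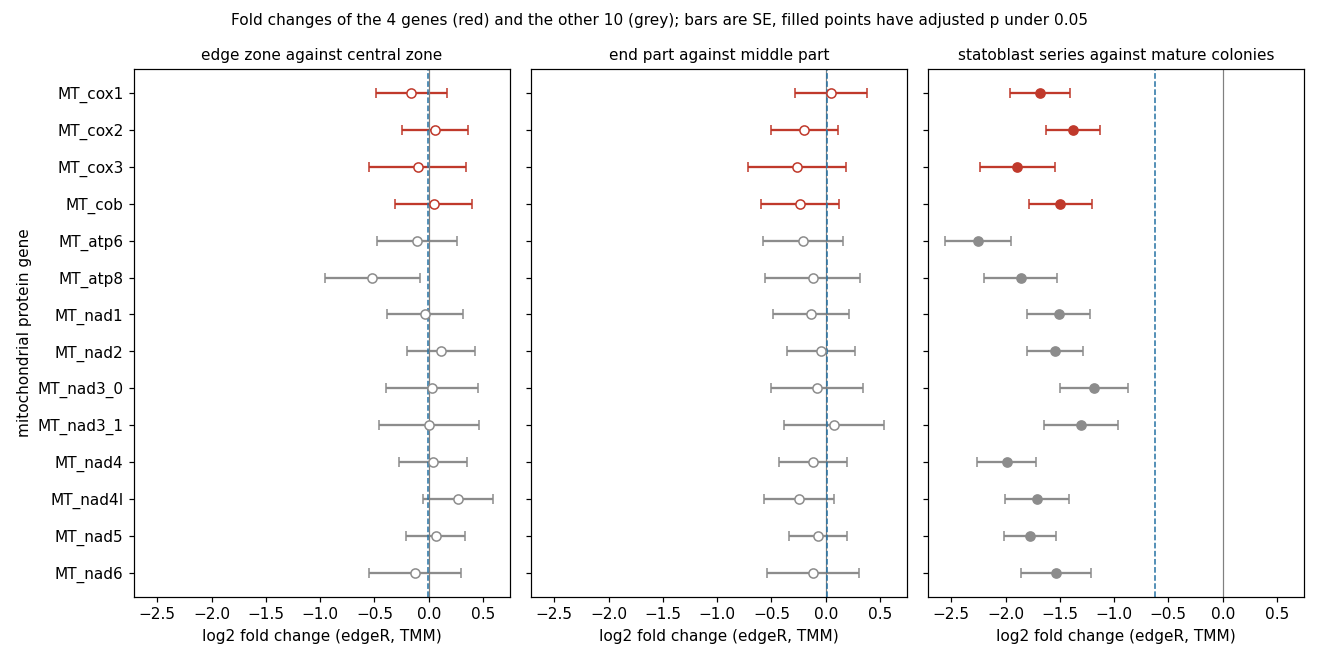
Log2 fold change from edgeR (horizontal axis) of the 14 mitochondrial protein genes (rows, the 4 genes in red and the other 10 in grey) in 3 comparisons (panels), with bars for the SE, filled points for an adjusted p under 0.05 and a dashed line at the median of all models tested. In the statoblast panel all 14 points are filled and lie left of the median of -0.62, while in the other panels all points are open.

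Each statoblast stage taken alone was lower than the mature colonies in all 4 genes. The freezer library differed most, at -2.23 for MT_cox3, -2.19 for MT_cox1, -1.86 for MT_cob and -1.63 for MT_cox2. At day 2 the changes were -1.86, -1.63, -1.43 and -1.34 in the same order of genes. At day 4 they were -1.67, -1.47, -1.31 and -1.20, and at day 6 -1.79, -1.50, -1.37 and -1.33. Adjusted p-values from edgeR ran from 0.000169 to 0.012 over these 16 tests, in which the spread came from the mature replicates and the lone stage library was assumed to vary like them. Lower calls made up 50.1% of models for the freezer library, 48.0% at day 2, 41.1% at day 4 and 40.6% at day 6.

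Within the statoblast series the clearest step was from the freezer library to day 2. MT_cox1 stood at 1.49 times its freezer CPM (95% interval 1.47 to 1.51), MT_cob at 1.35 times (1.33 to 1.37), MT_cox3 at 1.29 times (1.27 to 1.32) and MT_cox2 at 1.23 times (1.21 to 1.25). These intervals cover counting error only, since 1 library stood for each stage. From day 2 to day 4 the ratios were 1.003 to 1.05, and from day 4 to day 6 they were 0.942 for MT_cox1, 0.927 for MT_cob, 0.893 for MT_cox3 and 0.881 for MT_cox2. All 4 genes were lowest in the freezer library and highest at day 4, although day 2 and day 4 of MT_cob differed by less than counting error. The other mitochondrial protein genes were less uniform between freezer and day 2. Of the 10, 7 had a ratio with its interval above 1, 2 below 1 and 1 with an interval that held 1, from 0.765 for MT_nad6 to 1.40 for MT_nad4l. The mitochondrial ribosomal RNAs also differed at this step, MT_rrnS standing at 395 CPM in the freezer library and 3783 CPM at day 2, and MT_rrnL at 872 and 6388 CPM. The part of these low ribosomal RNA values in the step was not tested.

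A linear trend over the days was not called for any of the 4 genes, with the freezer library coded as day 0. Slopes per day on the log2 scale were 0.08 for MT_cox1 (SE 0.06), 0.05 for MT_cob (SE 0.05), 0.04 for MT_cox3 (SE 0.05) and 0.02 for MT_cox2 (SE 0.05), with edgeR adjusted p-values of 0.384 to 0.821. None had an unadjusted p under 0.05 in edgeR or in DESeq2, while edgeR called 10.1% of the 9887 models tested and DESeq2 13.4% of its own. Without the freezer library the slopes were -0.04 to -0.01.

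None of the 4 genes passed the test between the edge and the centre of the colony. MT_cox1 had 37157 and 27493 CPM in the central zone and 24933 and 18223 CPM at the edge, which do not overlap in CPM. The same held for MT_cox2, with 12304 and 13072 CPM against 11048 and 9003 CPM. MT_cox3 had 17232 and 19035 CPM against 16300.4 and 9198 CPM, and MT_cob 16557 and 17654 CPM against 15546 and 11184 CPM. In each gene both edge values lay below both central ones, which held for 48.6% of the 15572 models with a mean of at least 1 CPM, and the lowest was edge zone replicate 3.

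With normalization by TMM, which scales each library to the bulk of the models, log2 fold changes of edge against central zone were -0.16 for MT_cox1 (SE 0.33), -0.10 for MT_cox3 (SE 0.45), 0.04 for MT_cob (SE 0.36) and 0.06 for MT_cox2 (SE 0.31), with edgeR adjusted p-values of 0.751 to 0.940. Calls numbered 0 of 4 genes in edgeR and in DESeq2, with 0 at an unadjusted p under 0.05 in both, against 23.7% of the 18085 models tested in edgeR and 25.7% in DESeq2. With library totals alone the 4 values were -0.58 to -0.34, none called and 1 with an unadjusted p under 0.05, and the median model moved from -0.01 to -0.42. The zones also carried different replicate numbers, 1 and 2 in the centre and 2 and 3 at the edge.

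End and middle parts of elongated colonies overlapped in all 4 genes. MT_cox1 had 32810.1 and 19621 CPM in the end part and 27824 and 20860.3 CPM in the middle part. MT_cox2 had 11579 and 8887 CPM against 13330.2 and 9150 CPM. MT_cox3 had 17902 and 8278 CPM against 20653 and 9142 CPM, and MT_cob 15847 and 10121 CPM against 18673 and 10490.3 CPM. In both parts the lower value of each gene was that of replicate 3, and the 2 libraries of a part lay further apart than the means of the parts.

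Log2 fold changes of end against middle part were 0.05 for MT_cox1 (SE 0.33), -0.20 for MT_cox2 (SE 0.31), -0.24 for MT_cob (SE 0.36) and -0.26 for MT_cox3 (SE 0.45). None of the 4 was called (edgeR adjusted p-values of 0.819 to 0.967), 0 had an unadjusted p under 0.05 in edgeR or DESeq2, and the share of models called was 0.343% in edgeR and 2.12% in DESeq2. The difference between the 2 dissections was -0.21 for MT_cox1, 0.25 for MT_cox2, 0.16 for MT_cox3 and 0.28 for MT_cob. It was called for 0 of 4 (edgeR adjusted p-values of 0.731 to 0.891; 0 at an unadjusted p under 0.05 in edgeR and in DESeq2), against 2.18% of models in edgeR and 10% in DESeq2. At an SE of 0.31 to 0.45 per zone contrast, changes of the size seen were not detectable with 2 libraries a group.

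The mature libraries were also ordered by replicate number. This pattern was noticed in the values and is described without a test. For all 4 genes, each of the 3 libraries with number 3 (edge zone, end part, middle part) lay below each of the 5 libraries with number 1 or 2 in CPM. That order was seen in 13 of the 14 mitochondrial protein genes and in 0.719% of the 15572 models with a mean of at least 1 CPM. Means were 8873 ± 516 CPM in the number 3 libraries and 18224 ± 1684 CPM in the others for MT_cox3, and 10598 ± 540 against 16855 ± 1300.3 CPM for MT_cob (SD, n = 3 and n = 5). They were 9013 ± 132 against 12267 ± 967 CPM for MT_cox2, and 19568 ± 1320 against 30044 ± 4894 CPM for MT_cox1. Replicate number 1 stood apart in MT_cox1 alone of the 4, its 2 libraries at 37157 and 32810.1 CPM being the highest of the 8. The labels do not say what a number marks, and the central zone has no library with number 3.

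To compare the genes with each other, levels were divided by gene length, as CPM per kilobase. MT_cob then had the lowest level of the 4 in 12 of 12 libraries, at 12244 ± 2866 CPM per kilobase in mature and 6412 ± 859 in statoblast libraries (SD, n = 8 and n = 4). The highest level changed hands: it was that of MT_cox2 in 6 libraries, of MT_cox3 in 4 and of MT_cox1 in 2. MT_cox2 led in all 4 statoblast stages, with 9208 ± 952 CPM per kilobase against 7699 ± 1385 for MT_cox1 and 7527 ± 967 for MT_cox3. In mature colonies MT_cox3 had 18941 ± 6451, MT_cox1 17002 ± 4298 and MT_cox2 16221 ± 2697 CPM per kilobase. Compared within each library, MT_cox3 lay above MT_cox2 in every mature library with replicate number 1 or 2 and below it in every one with number 3. The ranges of MT_cob and MT_cox2 over mature libraries overlapped, at 8541 to 15758 and 13049 to 19574 CPM per kilobase, although MT_cob was the lower of them in each library.

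Ordered by count, MT_cox1 stood first of the 4 in all 12 libraries, and the order of the rest followed 3 patterns. In the 5 mature libraries with number 1 or 2 it was MT_cox3, MT_cob and MT_cox2. In end part replicate 3, middle part replicate 3 and the 4 statoblast libraries it was MT_cob, MT_cox2 and MT_cox3. Edge zone replicate 3 had MT_cob, MT_cox3 and MT_cox2. MT_cox3 thus came right after MT_cox1 in the number 1 and 2 libraries, between MT_cob and MT_cox2 in edge zone replicate 3 and last in the other 6 libraries.

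The share of each gene among the counts of the 14 mitochondrial protein genes does not depend on nuclear transcripts or on library scaling. The 4 genes together made up 53.8% to 58.0% of these counts in mature libraries and 56.4% to 60.8% in statoblast libraries, with means of 55.7% ± 1.63 and 58.8% ± 1.81 (SD, n = 8 and n = 4). The 95% Wilson intervals of single shares reached at most 0.0644 percentage points to either side in mature and 0.16 in statoblast libraries. Of the 4 genes, MT_cox2 and MT_cob took a larger share in the statoblast series, and MT_cox1 and MT_cox3 were not called. The tests took the 4 stages as replicates of one set and all 8 mature libraries, whatever their zone or replicate number, as the other. Their p-values therefore do not measure the spread within a stage. The fractions in the deposited values, described above, differed by gene and between the sets. Their part in the shares and ratios was not tested.

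MT_cox2 held 8.52%, 9.18% and 10.4% as lowest, median and highest mature share, and 12.3%, 12.003%, 11.5% and 11.2% in the freezer, day 2, day 4 and day 6 libraries. All 4 stages lay above all 8 mature libraries. The mean share was 11.7% ± 0.502 against 9.42% ± 0.755, a difference of 2.33 percentage points (p = 0.00404 in a two-sided exact permutation test, which is the smallest this design allows, and adjusted p = 0.00808 over the 4 genes). MT_cob held 11.5%, 12.1% and 12.97% as lowest, median and highest mature share, and 13.8%, 14.7%, 13.99% and 14.2% over the stages. Its ranges did not overlap either, with means of 14.2% ± 0.407 against 12.2% ± 0.558 and a difference of 2.00 percentage points (exact permutation test, two-sided, p = 0.00404, adjusted p = 0.00808). Of the 14 mitochondrial protein genes, 21.4% were higher without overlap in this way, the third of them being MT_nad3_0, while MT_nad3_1 overlapped. Another 14.3%, MT_nad4 and MT_atp6, were lower without overlap.

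MT_cox1 held 19.2%, 21.6% and 25.9% as lowest, median and highest mature share, and 19.5%, 23.0%, 22.3% and 23.1% over the stages. Its 2 highest mature shares were those of the number 1 libraries, at 25.9% and 24.1%. The means were both 22.0% (SD 1.67 in statoblast and 2.47 in mature libraries), with an adjusted p of 0.990 in the exact permutation test. MT_cox3 held 9.56%, 12.6% and 14.3% as lowest, median and highest mature share, and 10.8%, 11.1%, 11.01% and 10.8% over the stages. Its statoblast shares fell in the gap between the 3 mature libraries with number 3, at 9.56% to 10.4%, and the 5 others, at 12.004% to 14.3%. The means were 10.9% ± 0.148 against 12.1% ± 1.75 (exact permutation test, two-sided, p = 0.218, adjusted p = 0.291).

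**Figure D3:**
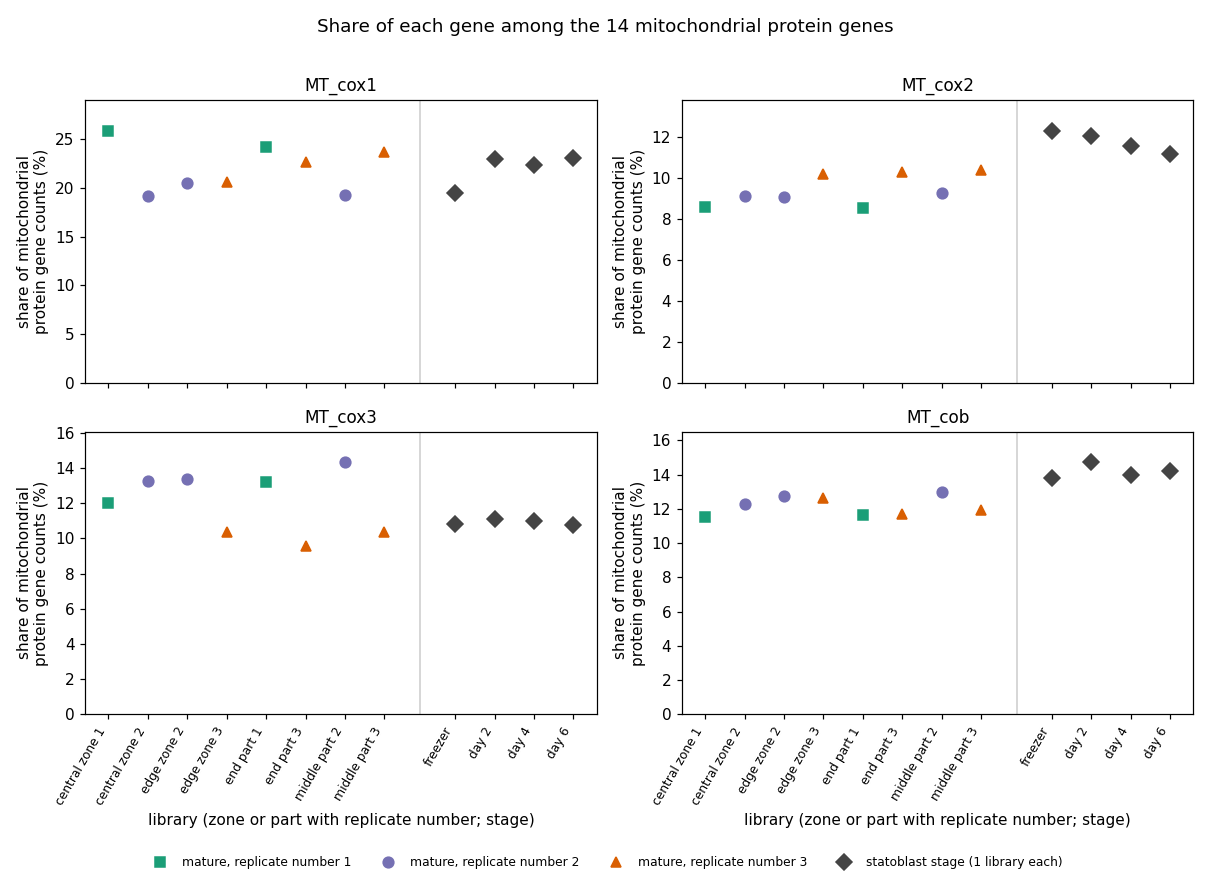
Share of each of the 4 genes among the counts of the 14 mitochondrial protein genes (vertical axis, percent, starting at 0) in each of the 12 libraries (horizontal axis, 1 point per library). The 4 statoblast points lie above all mature points for MT_cox2 (11.2% to 12.3%) and MT_cob (13.8% to 14.7%), and between the replicate number 3 points and the others for MT_cox3.

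The replicate number moved with the share of MT_cox3 and also with that of MT_cox2. The MT_cox2 share was 10.2% to 10.4% in the number 3 libraries, between the other 5 (8.52% to 9.26%) and the statoblast series. Of the 14 mitochondrial protein genes, 3 were higher and 2 lower in the number 3 libraries without overlap. The shares were therefore also set against each kind of mature library. This is a description, and tests on the split are given no weight, since it was made after these values were seen. Against the 5 mature libraries with number 1 or 2 the difference was 2.84 percentage points for MT_cox2, 1.94 for MT_cob and -2.31 for MT_cox3. Of the 14 mitochondrial protein genes, 28.6% lay above these libraries without overlap, MT_cox2 and MT_cob among them, and 21.4% below, MT_cox3 among them. Against the 3 libraries with number 3 the differences were 1.47 for MT_cox2, 2.104 for MT_cob and 0.811 for MT_cox3. In these 3 genes, as in 50% of the 14, all statoblast shares lay above the number 3 shares. For MT_cox2 and MT_cob the same direction in both sets follows from statoblast shares above all mature ones, so it adds no support. For MT_cox3 the opposite directions likewise follow from its place in the gap between the sets. Adding the 2 ribosomal RNAs to the denominator ended both calls, with differences of 1.43 for MT_cox2 and 0.909 for MT_cob (exact permutation tests, adjusted p = 0.151 each).

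Ratios between the genes of one library depend on no denominator. Of the 6 pairs, 3 differed between the sets. The log2 ratio of MT_cox3 to MT_cob was 0.06, 0.11, 0.07, 0.18 and 0.15 in the 5 mature libraries with number 1 or 2 and -0.28, -0.29 and -0.20 in the 3 with number 3. In the statoblast series it was -0.35, -0.41, -0.34 and -0.40, below all mature libraries. The means were -0.38 ± 0.03 against -0.03 ± 0.20 (SD; exact permutation test, two-sided, adjusted p = 0.0242 over the 6 pairs).

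The log2 ratio of MT_cox3 to MT_cox2 was 0.49 to 0.63 in the number 1 and 2 libraries, -0.10 to 0.03 in those with number 3 and -0.18 to -0.05 in the statoblast series. Statoblast values overlapped with the number 3 libraries and not with the others, and the means were -0.10 ± 0.06 against 0.35 ± 0.31 (exact permutation test, adjusted p = 0.0242). The log2 ratio of MT_cox2 to MT_cox1 was -0.90 ± 0.16 in the statoblast series and -1.22 ± 0.21 in mature colonies (exact permutation test, adjusted p = 0.0242). Here the sets overlapped. Statoblast values were -0.67 in the freezer library and -1.05 to -0.94 at days 2 to 6. Mature values were -1.59 and -1.50 in the number 1 libraries and -1.19 to -1.02 in those with number 2 or 3. The other 3 pairs did not pass, with adjusted p-values of 0.139 for MT_cob to MT_cox1, 0.189 for MT_cob to MT_cox2 and 0.440 for MT_cox3 to MT_cox1. Without the freezer library, or without day 2, 0 of 6 pairs passed (exact permutation tests of 3 against 8 libraries, lowest adjusted p = 0.0727 in both). An exact permutation test of 3 against 8 libraries cannot go below p = 0.0121, which MT_cox3 to MT_cob reached in both. Over 6 pairs, a single pair at this floor cannot pass, so the missing call does not show a smaller difference. Without the freezer library and without day 2, the MT_cox3 to MT_cob difference was -0.36 and -0.34, against -0.35 with all libraries.

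**Figure D4:**
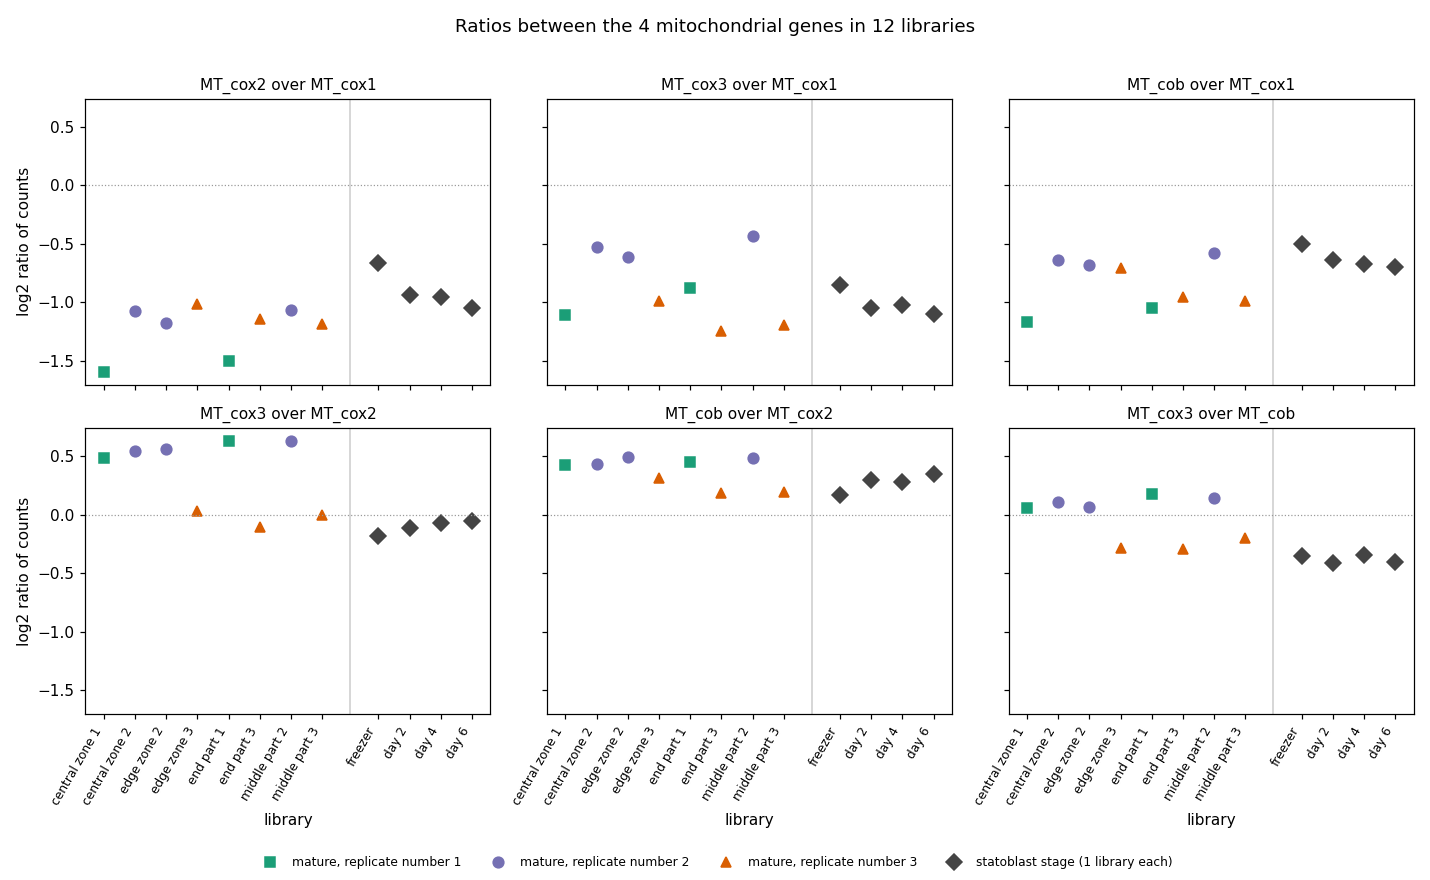
Log2 ratio of counts between each pair of the 4 genes (vertical axis, 0 meaning equal counts) in each of the 12 libraries (horizontal axis, 1 point per library). In the panels of MT_cox3 over MT_cox2 and MT_cox3 over MT_cob the mature libraries form 2 levels by replicate number, and the statoblast libraries lie near or below the number 3 level.

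Across the 12 libraries the 4 genes followed one another closely on the log2(CPM + 1) scale. These correlations are given as a description, since the libraries share the difference between the sets, the replicate numbers and the library totals. MT_cox3 and MT_cob were most alike, with Pearson's r of 0.9945 over 12 libraries and 0.9935 over the 8 mature ones. MT_cox1 followed the others least, with r of 0.944 to 0.959 over 12 libraries and 0.812 to 0.838 over the mature ones. Among the 15571 other models with a mean of at least 1 CPM, the 3 most like MT_cox2 were MT_atp6 (0.989), MT_cob (0.988) and MT_nad2 (0.981). Those most like MT_cox3 were MT_cob, MT_nad1 (0.987) and MT_cox2 (0.980), and those most like MT_cob were MT_cox3, MT_nad1 (0.989) and MT_cox2. MT_cox1 was most like MT_cox2 and MT_nad4, both at 0.959, with a model without a name as the third.

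The mitochondrial ribosomal RNAs did not follow them, with r of 0.483 to 0.588 for MT_rrnS and 0.153 to 0.281 for MT_rrnL. Of the models without a name, g5919 (contig 78, bases 1528108 to 1531618) was most like the summed level of the 4 genes, with r of 0.961. Its level was 77.0 to 126 CPM over the mature and 55.0 to 65.4 CPM over the statoblast libraries. The next was g23459 (contig 71, bases 1402596 to 1403330), with r of 0.953, with levels of 1.68 to 3.51 CPM over the mature and 0.178 to 0.512 CPM over the statoblast libraries.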

How the data were processed

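Polyadenylated RNA was sequenced with a strand-preserving kit, paired-end or single-end on different instruments, per the labels' protocols, which do not say which library had which. The submitters' processing notes list HISAT2 2.1.0 and featureCounts 1.5.1. Strand setting, assembly and annotation were not given in the sources used here. One table deposited by the authors holds expected counts per gene model, not normalized, some of them fractions. Values were rounded before the tests, changing each library total by at most 0.00408%. Libraries were grouped by title. No label says that replicates are separate colonies, and p-values therefore reflect only the spread between these libraries, which may be technical. The protocol text speaks of 2 biological replicates, yet each statoblast stage has 1 library here.

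Tests across all models used the quasi-likelihood test of edgeR 4.0.16 (R 4.3.3) after filterByExpr and TMM scaling, with Benjamini-Hochberg adjustment and a threshold of 0.05. The zones were fitted as 4 group means over the 8 mature libraries, statoblast against mature as 2 groups over 12, and the slope over the 4 statoblast libraries. SEs were computed as the size of the log2 change over the root of its F statistic. DESeq2 1.42.0 was an alternative. Shares and ratios were tested with exact two-sided permutation tests in Python 3.11.15 (numpy 2.4.6, pandas 2.3.3, scipy 1.17.1). These tests treated the 4 stages as replicates of one set and the 8 mature libraries as interchangeable. Figures were drawn with matplotlib 3.10.9. Wilson intervals are at 95%. Scripts were tested on simulated data. Named beside the 4 genes were the lowest and highest other mitochondrial genes, the 3 models most alike, and at most 2 without a name. The genes, lists and tests were chosen with earlier results of these data known, and the comparison by replicate number after its values were seen.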

Additional observations from a re-analysis of the deposited data

Results flagged for a closer look

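The level of MT_cox1 in the freezer library, 8669.8 CPM, stood apart from the other 3 statoblast libraries, the nearest of which had 12485 CPM. The gap was 0.833 of the range of the 4 libraries, against a critical value of 0.829 in Dixon's test at the 95% level. Of the 28 groups of values examined in this way, this was the only one to pass, and chance alone passes about 1 group in 20. MT_cob, MT_cox2 and MT_cox3 were also lowest in the freezer library, at 6131, 5461 and 4806 CPM, but did not pass.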

How the results depend on the processing

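With 2 libraries per zone and 1 per statoblast stage, small changes of the 4 genes were not detectable. For statoblast against mature libraries all 4 genes stayed called under each of the 20 alternatives, from -2.25 (MT_cox3, mature libraries with number 1 or 2) to -0.81 (MT_cox2, library totals alone). For both dissections, their difference and the slope, 0 of 4 genes were called under any alternative.

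For edge against central zone, library totals alone gave -0.34 for MT_cox2 and -0.36 for MT_cob, and fitting the 4 libraries of the dissection alone gave -6.8e-05 and -0.012. Leaving out 1 library at a time gave -0.48 to 0.11 for MT_cox1, -0.17 to 0.26 for MT_cox2, -0.66 to 0.31 for MT_cox3 and -0.29 to 0.32 for MT_cob. For end against middle part these ranges were -0.35 to 0.37, -0.49 to 0.18, -0.90 to 0.53 and -0.64 to 0.32. For the difference between dissections they were -0.55 to 0.19, -0.17 to 0.55, -0.68 to 0.80 and -0.33 to 0.68, and library totals alone gave -0.20 for MT_cox2, -0.32 for MT_cox3 and -0.19 for MT_cob. For the slope they were -0.013 to 0.15, -0.042 to 0.080, -0.025 to 0.11 and -0.028 to 0.11, the lowest each time without the freezer library. The causes were not tested.

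A replicate block was also fitted. At the edge against the central zone it put all 4 genes higher, from 0.18 for MT_cox1 to 0.31 for MT_cox3. The median of the 4 was 0.25, against -0.03 without the block, and the median model stood at 0.03 with it. The block gave -0.052 for MT_cox1 in the end part and 0.23 for MT_cox1 in the difference, with 0 genes called. Across all models, libraries with the same number deviated together only weakly (7 pairs, r from -0.130 to 0.272, 5 above 0.1). The libraries of a group deviate from their mean by equal and opposite amounts, so these values are not independent. On this basis the numbers were not taken as pairs. Values over all models cannot decide whether the number matters for these genes.

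Of the shares, 2 of 4 genes passed. The number was 0 with ribosomal RNAs in the denominator and against number 3 libraries, where 4 against 3 libraries cannot go below p = 0.0571 in an exact permutation test. With the library total as denominator, or that total without mitochondrial models, 4 passed, the differences then being -0.478 and -0.605 percentage points for MT_cox2 and -0.691 and -0.865 for MT_cob, which by construction follow the fall in level. The MT_cox1 difference was 0.172 against libraries with number 1 or 2 and -0.425 to 0.8004 with 1 library left out. That of MT_cox3 was 0.811 against number 3 libraries. Of the ratios, 3 of 6 pairs passed, 4 against number 1 or 2 libraries, 0 against number 3 libraries and 0 to 3 with 1 library left out, the 0 being without the freezer library or day 2. Against number 3 libraries no pair could pass, since the exact permutation test cannot go below p = 0.0571. Without the freezer library or day 2, MT_cox3 to MT_cob was at the lowest p the exact permutation test allows, where a single pair cannot pass. Against number 3 libraries MT_cox3 to MT_cox1 differed by 0.14 and MT_cob to MT_cox2 by 0.040. The comparisons by replicate number were chosen after the values of these genes were seen, so their calls support nothing.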
